A study of Homo sapiens with 6 samples.

Results

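Extracellular metalloproteases and their tissue inhibitors were examined in RD cells, an established embryonal rhabdomyosarcoma (ERMS) cell line, after knockdown of TAK1. The genes were taken by symbol. They comprise every row of the count table named MMP with a number, ADAM with a number, ADAMTS with a number or TIMP1 to TIMP4. Of the 58735 rows, 66 met this rule, made up of 23 MMP, 20 ADAM, 19 ADAMTS and 4 TIMP genes, after 3 rows annotated as pseudogenes (MMP23A, ADAM5 and ADAM6) had been set aside. The control group was 3 samples of RD cells carrying a scrambled shRNA, and the knockdown group was 3 samples of RD cells carrying a TAK1 shRNA. Both groups had been transduced with lentivirus, so the comparison is between constructs and not with untreated cells. TAK1 is a kinase that relays cytokine and growth factor signals to NF-κB and MAP kinases, and the comparison asks how its loss changes the mRNA levels of tumor cells. A single cell line and a single TAK1 shRNA were sequenced, and an effect of TAK1 loss and an effect of that construct cannot be told apart here.

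Matrix metalloproteases (MMPs) are zinc enzymes, most of them secreted and some anchored in the membrane, that cut collagens, gelatin, laminins and other matrix proteins. They are made as inactive precursors and are opened by plasmin, by other MMPs or by furin-type convertases. ADAM proteins sit in the plasma membrane, where the catalytically active members release the outer part of growth factors, Notch ligands, adhesion molecules and receptors, while others lack a working active site and act in adhesion. ADAMTS proteins are secreted and bind matrix through thrombospondin repeats. Some of them cut the proteoglycans versican and aggrecan, and others trim procollagens. TIMPs bind the active site and block these enzymes, TIMP3 having the widest reach among the ADAM and ADAMTS families. In skeletal muscle, MMP2, MMP14, ADAM12 and ADAMTS5 are known for roles in myoblast migration, fusion and remodeling of the versican-rich matrix.

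Total counts on genes ran from 28839898 to 34469323 per sample, and the 66 genes held between 0.163% and 0.170% of them. MAP3K7, the gene of TAK1, measured 77.9, 76.5 and 77.6 CPM in controls against 30.5, 33.6 and 29.9 CPM after knockdown. A CPM is 1 count in 1000000 counts of a library scaled by the trimmed mean of M-values (TMM). The log2 fold change of MAP3K7 was -1.30 ± 0.062 (SE, adjusted p = 4.45e-14, edgeR quasi-likelihood test with Benjamini-Hochberg adjustment, which gave all adjusted p-values below). Of 8 muscle lineage markers 7 were detected and MYF5 had 0 counts, and their summed level was 2019 to 2042 CPM in controls and 1950 to 2066 CPM after knockdown. MYOD1, MYOG and MYMK rose and CHRNA1 fell within that list. Of 5 immune markers, CD3E had 0 counts, and the list summed to 0.195 to 0.413 CPM in controls and 0.171 to 0.453 CPM after knockdown. Of 5 endothelial markers, CDH5 and KDR had 0 counts, with sums of 2.98 to 3.65 and 1.78 to 2.75 CPM, nearly all from TEK. Of 6 epithelial markers, CDH1 and KRT19 had 0 counts, and the sum was 56.9 to 63.0 CPM in controls and 27.7 to 31.2 CPM after knockdown, most of it KRT18, which fell. The part of these marker shifts in the changes below was not tested. In bulk RNA, fewer cells expressing a gene and less of its mRNA per cell cannot be told apart.

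RD cells expressed a restricted set of these genes. Of the 66, 38 had enough counts to be tested and 28 did not exceed 10 counts in any sample. Among the latter, 17 had 0 counts in all 6 samples, which allows at most 0.0849 to 0.106 CPM per sample (3 counts of the normalized total, covering counting error only). These were MMP3, MMP7, MMP8, MMP10, MMP12, MMP20, MMP26, MMP27, MMP28, ADAM2, ADAM7, ADAM18, ADAM29, ADAM30, ADAMTS16, ADAMTS18 and TIMP4. The remaining 11, with at most 10 counts, were MMP1, MMP9, MMP13, MMP19, MMP21, ADAM20, ADAM32, ADAM33, ADAMTS3, ADAMTS8 and ADAMTS19. Thus 0 of the 3 interstitial collagenases (MMP1, MMP8 and MMP13), 0 of the 2 matrilysins (MMP7 and MMP26) and, of the 2 gelatinases, only MMP2 were testable. MMP9, the other gelatinase, had 3, 2 and 4 counts in the controls and 0, 3 and 1 after knockdown. A difference in MMP9 was not detectable at this depth.

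Of the 14 untested MMPs, 9 lie at a single locus. Chromosome 11 carries a cluster of 9 MMP genes between 102520508 and 102955732 (GRCh38, GENCODE 44), which holds MMP7, MMP20, MMP27, MMP8, MMP10, MMP1, MMP3, MMP12 and MMP13. In it 7 genes had 0 counts in every sample, and the highest single count was 2. Promoter windows from RefSeq (GRCh38.p14, 250 bases before to 50 bases after a start) were held for 39 of the 66 genes, in 40 windows. The GC content of these windows had a median of 73.3% for the 25 tested genes and 42.5% for the 14 untested genes, against 58.7% over all 35116 windows. The windows of all genes were not split into tested and untested, so this difference cannot be called particular to these families. In the 5 cluster genes with a window the median was 36.3%.

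Motifs were searched on both strands of the same windows. The sequence TATAAA, chosen after the windows had been seen, stood in 2 of 26 windows of tested genes (7.69%) and in 6 of 14 windows of untested genes (42.9%), of which 4 belonged to the cluster. It occurs in 11.5% of all windows, again not split into tested and untested genes. The AP-1 motif, TGACTCA or TGAGTCA (each the reverse complement of the other), was found in 1 member window, that of MMP7, against 4.95% of all windows. The NF-κB motif was found in 0 of 40 member windows and in 5.91% of all windows. A match of letters does not show that a factor binds, and a window without a match says nothing about sites elsewhere.

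The 100 bases before the start are printed for genes of the cluster and for members that fell or rose after knockdown. MMP7 and MMP10, both with 0 counts, come from the cluster, TIMP1 and TIMP3 fell, and MMP15 and ADAM23 rose. Capitals mark TATAAA and the AP-1 motif, and each sequence reads 5′ to 3′ on the strand of the gene.
MMP7 (chr11:102530748-102530847, minus strand): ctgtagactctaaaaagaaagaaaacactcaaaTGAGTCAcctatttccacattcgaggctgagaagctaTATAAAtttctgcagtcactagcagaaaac
MMP10 (chr11:102780629-102780728, minus strand): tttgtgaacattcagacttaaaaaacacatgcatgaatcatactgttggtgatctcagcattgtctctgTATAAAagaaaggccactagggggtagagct
TIMP1 (chrX:47582336-47582435, plus strand): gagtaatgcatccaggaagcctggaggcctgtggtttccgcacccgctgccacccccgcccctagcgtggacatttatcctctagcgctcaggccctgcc
TIMP3 (chr22:32801605-32801704, plus strand): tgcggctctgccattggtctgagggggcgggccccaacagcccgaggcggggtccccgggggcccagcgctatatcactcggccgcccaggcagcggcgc
MMP15 (chr16:58025654-58025753, plus strand): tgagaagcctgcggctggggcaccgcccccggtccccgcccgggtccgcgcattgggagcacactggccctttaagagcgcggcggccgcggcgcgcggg
ADAM23 (chr2:206443432-206443531, plus strand): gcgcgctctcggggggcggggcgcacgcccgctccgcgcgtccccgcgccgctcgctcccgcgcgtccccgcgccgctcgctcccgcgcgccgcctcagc

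In MMP7 the TATAAA begins 30 bases and the AP-1 motif 67 bases before the start, and in MMP10 the TATAAA begins 31 bases before it. These stretches hold 37.0% and 39.0% G or C and 1 and 0 CG dinucleotides. Those of TIMP1, TIMP3, MMP15 and ADAM23 hold 64.0%, 76.0%, 78.0% and 88.0% G or C, with 5, 10, 15 and 25 CG dinucleotides and no TATAAA. The median GC content of the full windows was 74.8% in the 4 members that rose and have a window and 73.7% in the 4 that fell.

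Mean control levels of the tested members ran from 0.258 CPM for MMP24 to 226 CPM for TIMP2, as the plot of CPM by sample shows. In control samples 12 members were above 50 CPM. Divided by the length of the longest annotated transcript, TIMP1 had the highest control level at 76.0 ± 2.15 CPM per kilobase (SD, n = 3), followed by TIMP2 at 61.9 ± 2.79, MMP14 at 52.6 ± 1.22, ADAM12 at 23.1 ± 1.11 and TIMP3 at 19.5 ± 0.719. After knockdown TIMP2 was first at 61.0 ± 1.23 CPM per kilobase and TIMP1 next at 56.9 ± 0.342, ahead of MMP14 at 51.7 ± 1.87. This order depended on the length used. With the median transcript length, ADAM12 stood first at 306 CPM per kilobase and MMP14 second at 173. That median was 600 bases for ADAM12 and 1168 bases for MMP14, far shorter than their longest transcripts of 7941 and 3852 bases.

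**Figure D1:**
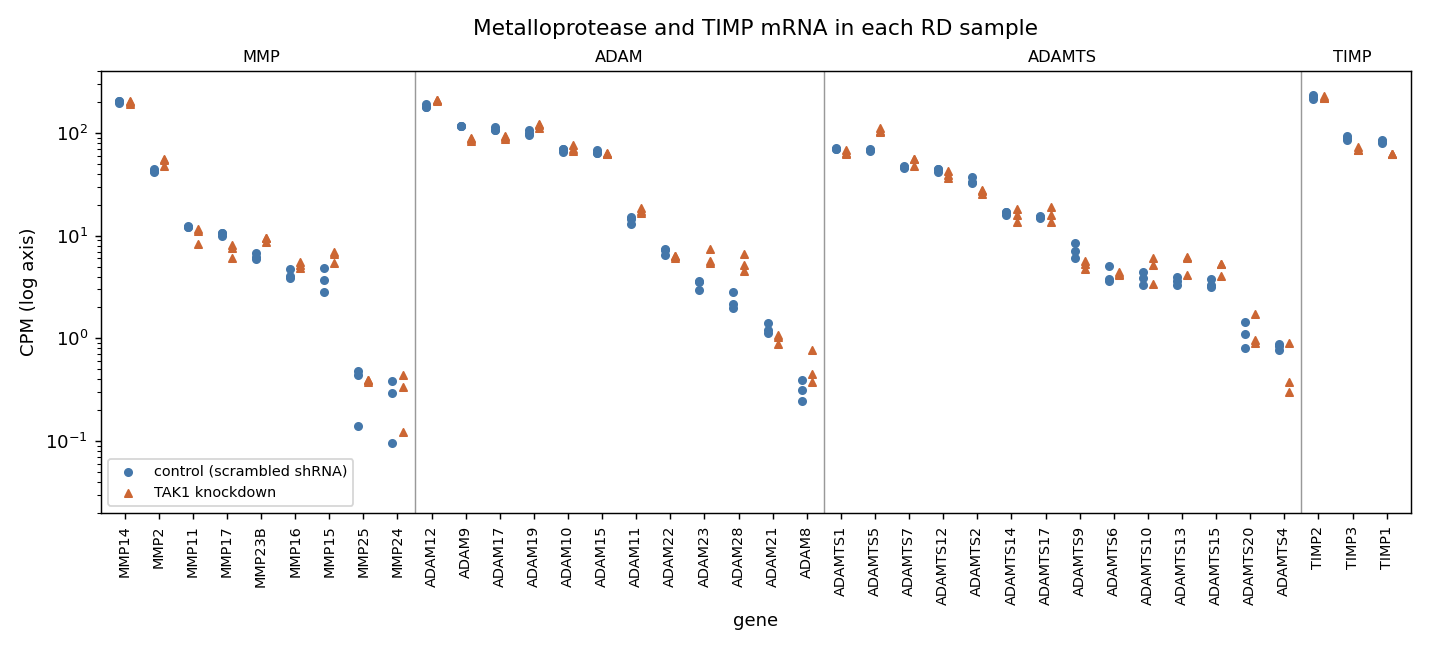
CPM of the 38 tested genes in each sample on a log axis, by family and by control mean; circles are the 3 control samples and triangles the 3 TAK1 knockdown samples. TIMP2, MMP14 and ADAM12 lie near 200 CPM, while MMP24, MMP25 and ADAM8 lie below 1 CPM.

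Between the groups, 9 of the 38 tested members rose and 7 fell. The legend of the study's volcano plot gives a log2 fold change of 0.5, at which 7 members rose and 1 fell. At that value 735 of all 15935 tested genes rose and 680 fell. Both thresholds used here came from the study's methods. They are an adjusted p below 0.05 together with a log2 fold change of 0.25 or more in size. Over all 15935 tested genes these thresholds were passed upward by 11.8% and downward by 11.3%, or 23.1% in all, against 42.1% of the tested members. The members that rose were ADAM28, ADAM23, MMP15, ADAMTS5, ADAMTS13, MMP23B, ADAMTS15, ADAM11 and MMP2. Those that fell were MMP17, ADAMTS9, ADAM9, TIMP1, ADAMTS2, TIMP3 and ADAM17. The median log2 fold change was 0.071 over the 38 members and 0.018 over all tested genes. The 3 control and 3 knockdown values did not overlap in 23 members, of which 12 were higher and 11 lower after knockdown, and in 21.6% and 22.2% of all tested genes. For a single gene with non-overlapping groups, the two-sided exact permutation p is 0.1, the smallest that 3 against 3 samples allow.

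**Figure D2:**
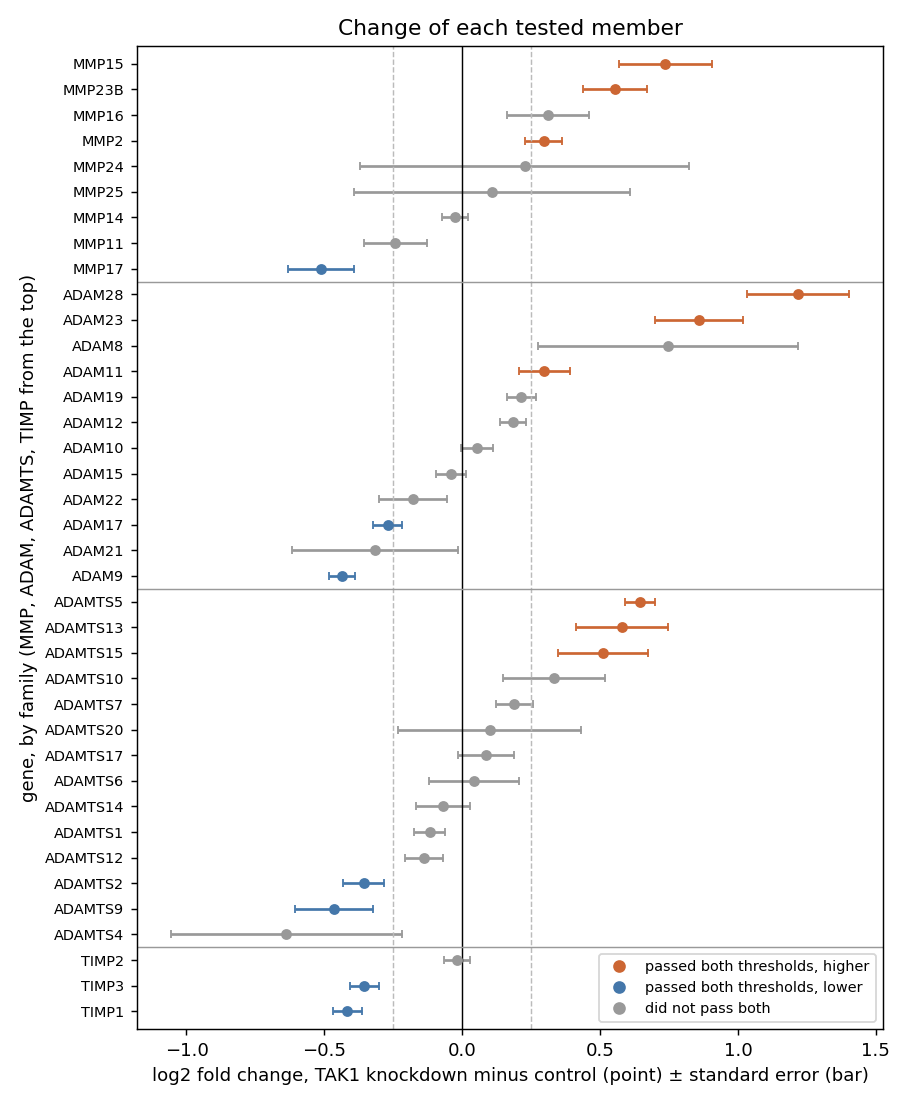
Log2 fold change of each tested member, knockdown minus control, with its standard error as the bar; dashed lines mark the fold threshold of 0.25 in either direction. Orange points (9 genes) passed both thresholds upward, blue points (7 genes) downward, and gray points did not pass both.

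Among the inhibitors, TIMP1 and TIMP3 fell and TIMP2 did not pass the test. TIMP1, a secreted inhibitor of most MMPs and of ADAM10, lies on chromosome X from 47582408 to 47586789. It had 84.1, 80.5 and 84.9 CPM in the controls and 61.9, 62.7 and 62.3 CPM after knockdown, so that every knockdown sample was below every control sample. Its log2 fold change was -0.42 ± 0.053 (SE, adjusted p = 8.92e-07). TIMP3, which binds to the matrix and inhibits ADAM17 and ADAMTS5 as well as MMPs, is encoded on chromosome 22 from 32801705 to 32863041. Its values were 92.7, 89.9 and 86.1 CPM in the controls and 72.6, 68.8 and 68.8 CPM after knockdown. The groups did not overlap, with a log2 fold change of -0.35 ± 0.053 (SE) and an adjusted p of 1.01e-05. TIMP2, which both inhibits MMP2 and helps MMP14 to activate its precursor, had 236, 227 and 216 CPM in the controls and 221, 220 and 228 CPM after knockdown. These ranges overlapped, and the log2 fold change was -0.02 ± 0.046 (SE). TIMP2 shares exon sequence with CEP295NL, annotated on the same strand. TIMP4 had 0 counts in every sample.

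In the MMP family, 3 of 9 tested genes rose and 1 fell, and MMP14, the MMP with the most reads, did not pass the test. MMP14, the membrane-type collagenase that opens the MMP2 precursor, had 205, 206 and 197 CPM in the controls and 206, 192 and 199 CPM after knockdown. Its ranges overlapped, with a log2 fold change of -0.03 ± 0.046 (SE). The gelatinase MMP2 had 44.9, 41.9 and 42.9 CPM in the controls and 54.8, 48.0 and 56.5 CPM after knockdown. All knockdown values lay above the controls, with a log2 fold change of 0.30 ± 0.067 (SE, adjusted p = 0.00112). Without replicate 3 of the knockdown samples the MMP2 change was 0.24, under the fold threshold. MMP2 shares exon sequence with an unnamed gene annotated on the same strand.

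The other membrane-type MMPs differed in direction. MMP15, encoded on chromosome 16 from 58025754 to 58046901, rose from 2.81, 4.83 and 3.70 CPM to 6.63, 5.46 and 6.91 CPM. The groups did not overlap, and the log2 fold change was 0.74 ± 0.17 (SE, adjusted p = 0.00128). MMP17, which is held in the membrane by a glycolipid anchor, fell from 10.7, 10.5 and 9.89 CPM to 8.17, 7.59 and 6.12 CPM. Its log2 fold change was -0.51 ± 0.12 (SE, adjusted p = 0.00149), again without overlap. MMP16 had means of 4.19 ± 0.460 and 5.19 ± 0.376 CPM (SD, n = 3) and an adjusted p of 0.112. MMP24 and MMP25, both under 0.5 CPM in every sample, had standard errors of 0.60 and 0.50 on the log2 scale.

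MMP23B, an MMP with a membrane-anchored propeptide region, went from 5.87, 6.26 and 6.71 CPM to 8.75, 9.40 and 9.51 CPM. It rose, with a log2 fold change of 0.55 ± 0.12 (SE, adjusted p = 0.000589), and the groups did not overlap. MMP23A is a near-identical copy of it, listed with at most 9 counts. Exons of MMP23B overlap those of CDK11B on the opposite strand, so the MMP23B count is uncertain to that extent. MMP11, stromelysin-3, had 12.3, 12.1 and 12.3 CPM in the controls and 11.1, 11.7 and 8.21 CPM after knockdown. The MMP11 values did not overlap, yet the adjusted p was 0.112, and replicate 3 of the knockdown samples was the lowest. Without knockdown replicate 2 MMP11 passed both thresholds, at -0.35.

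Of the 12 ADAM genes tested, 3 rose and 2 fell. ADAM28, a membrane or secreted protease of the active type, had the largest change of all tested members under edgeR. It had 2.15, 2.86 and 1.98 CPM in the controls and 5.16, 6.57 and 4.51 CPM after knockdown. Each knockdown sample exceeded each control, with a log2 fold change of 1.22 ± 0.19 (SE, adjusted p = 1.23e-05). ADAM23 and ADAM11, which lack a working active site and are known from neurons as receptors for LGI proteins, also rose. ADAM23 went from 3.66, 2.95 and 3.54 CPM to 7.35, 5.69 and 5.39 CPM, a log2 fold change of 0.86 ± 0.16 (SE, adjusted p = 0.000145). ADAM11 went from 14.4, 12.9 and 15.3 CPM to 17.2, 18.6 and 16.5 CPM, a log2 fold change of 0.30 ± 0.091 (SE, adjusted p = 0.0133). Neither gene had overlapping groups. The ADAM11 change was under the threshold without replicate 2 of the controls or replicate 2 of the knockdown samples, and was as low as 0.23 there. ADAM22, the third of this kind tested, had means of 7.02 ± 0.521 and 6.21 ± 0.186 CPM (SD, n = 3) and did not pass (adjusted p = 0.295).

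Both ADAM genes that fell encode sheddases with high levels. ADAM9 had 118, 117 and 118 CPM in the controls and 84.6, 88.8 and 87.7 CPM after knockdown. The groups were well apart, with a log2 fold change of -0.44 ± 0.049 (SE, adjusted p = 1.3e-07). ADAM17, the enzyme that releases TNF and several EGF receptor ligands, had 108, 107 and 115 CPM in the controls and 87.2, 93.8 and 92.2 CPM after knockdown. It did not overlap either, and its log2 fold change was -0.27 ± 0.052 (SE, adjusted p = 0.0002). ADAM17 lay close to the fold threshold and came under it without replicate 3 of the controls or replicate 1 of the knockdown samples (-0.24 in each) and with scaling by library size alone (-0.22). Exons of ADAM9 and ADAM17 overlap those of TM2D2 and IAH1 on the opposite strand, from which reads could not be told apart if strand was not used in counting.

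ADAM10, the related sheddase of Notch receptors, had 69.8, 65.7 and 69.3 CPM in the controls and 67.3, 69.2 and 76.1 CPM after knockdown. Its groups overlapped (log2 fold change 0.05 ± 0.058). ADAM15 likewise overlapped, at 63.6, 67.7 and 64.1 CPM against 63.0, 64.1 and 63.1 CPM. ADAM12 and ADAM19, known as meltrins and expressed in developing muscle, were higher in every knockdown sample but lay under the fold threshold. ADAM12 had 194, 178 and 179 CPM in the controls and 211, 203 and 212 CPM after knockdown (log2 fold change 0.19 ± 0.047, adjusted p = 0.0035). ADAM19 had 107, 96.2 and 100 CPM against 122, 111 and 119 CPM (log2 fold change 0.21 ± 0.053, adjusted p = 0.00269). ADAM19 passed the fold threshold with scaling by library size alone, at 0.26, and without control replicate 1 or knockdown replicate 2 (highest 0.25). ADAM8 and ADAM21, with at most 1.41 CPM in any sample, had standard errors of 0.47 and 0.30 on the log2 scale.

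Among 14 tested ADAMTS genes 3 rose and 2 fell. ADAMTS5, the main aggrecanase and a versican-cleaving enzyme, had the smallest adjusted p of all tested members. It had 68.7, 66.2 and 70.4 CPM in the controls and 103, 105 and 113 CPM after knockdown, with a wide gap between the groups. The log2 fold change was 0.64 ± 0.054 (SE, adjusted p = 9.03e-10). ADAMTS5 lies on chromosome 21 from 26917922 to 26967088, next to ADAMTS1 (26835755 to 26845409), another versican-cleaving enzyme. ADAMTS1 had 70.0, 69.9 and 71.8 CPM in the controls and 63.6, 62.7 and 68.7 CPM after knockdown, lower in each but not past the test (log2 fold change -0.12 ± 0.056, adjusted p = 0.109).

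The other proteoglycan-cleaving members were expressed at lower levels. ADAMTS9 fell from 6.01, 8.51 and 7.17 CPM to 5.27, 4.76 and 5.73 CPM (log2 fold change -0.47 ± 0.14, adjusted p = 0.0126). ADAMTS15, encoded on chromosome 11 from 130448645 to 130476645, rose from 3.17, 3.30 and 3.79 CPM to 5.27, 4.08 and 5.33 CPM. Its log2 fold change was 0.51 ± 0.16 (SE, adjusted p = 0.0173). For both genes the groups were separate but close, and the calls depended on single samples. ADAMTS9 lost its call without replicate 2 of the controls (-0.33), and ADAMTS15 without replicate 1 or 2 of the controls or replicate 1 or 3 of the knockdown samples (lowest 0.43). Exons of ADAMTS9 overlap ADAMTS9-AS1 on the opposite strand, which had at most 7 counts. The ADAMTS15 neighbor ADAMTS8 (130404923 to 130428609) had 1 count in a single sample. ADAMTS4 and ADAMTS20 stayed at or under 1.73 CPM and did not pass, except ADAMTS4 without knockdown replicate 2 (-1.30).

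ADAMTS2, which removes the amino-terminal propeptide of fibrillar procollagens, fell from 37.4, 32.8 and 33.2 CPM to 27.97, 25.5 and 27.2 CPM. The log2 fold change was -0.36 ± 0.073 (SE, adjusted p = 0.000433), with no overlap. ADAMTS14, which has the same activity, had means of 16.6 ± 0.694 and 15.9 ± 2.33 CPM (SD, n = 3) and an adjusted p of 0.647, and ADAMTS3, the third, had at most 5 counts. ADAMTS13, the protease of von Willebrand factor, rose from 3.97, 3.65 and 3.31 CPM to 6.02, 6.20 and 4.12 CPM. Its log2 fold change was 0.58 ± 0.17 (SE, adjusted p = 0.00877), and knockdown replicate 3 was only slightly above the highest control. ADAMTS7 and ADAMTS12, which cleave cartilage oligomeric matrix protein (COMP), had log2 fold changes of 0.19 (adjusted p = 0.0293) and -0.14 (adjusted p = 0.124), under the fold threshold and with overlapping groups. ADAMTS7 has several pseudogene copies with which reads may be shared. ADAMTS6, ADAMTS10 and ADAMTS17 did not pass, with adjusted p from 0.183 to 0.872. Without knockdown replicate 3, ADAMTS7 (0.25) and ADAMTS10 (0.53) passed both thresholds.

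Summed over members per kilobase of longest transcript, the TIMPs were lower in every knockdown sample than in every control, and no other group of members was. The TIMP sum was 162, 155 and 155 CPM per kilobase in the controls and 133, 132 and 134 after knockdown, with means of 157 ± 3.69 and 133 ± 1.00 (SD, n = 3). TIMP2 made up 39.3% ± 1.15 of that sum in the controls and 45.8% ± 0.580 after knockdown. Membrane-type MMPs summed to 58.3 ± 1.43 and 56.8 ± 2.14 CPM per kilobase, and ADAMs to 97.8 ± 1.89 and 97.6 ± 0.751, both with overlapping groups. Within the ADAM sum, ADAM9 and ADAM17 were lower and ADAM12 and ADAM19 higher in every knockdown sample. That sum includes ADAM11, ADAM22 and ADAM23, which lack a working active site. The other MMPs summed to 19.8 ± 0.354 and 23.9 ± 0.818, and ADAMTSs to 47.3 ± 0.115 and 50.6 ± 0.535, with every knockdown sample above every control. MMP14 alone held 67.3% ± 0.540 of the MMP sum in the controls and 64.0% ± 0.151 after knockdown. These sums are descriptions and carry no test, and they depend on the transcript length used. With the median transcript length, the ADAM sum had means of 576 CPM per kilobase in the controls and 619 after knockdown, higher instead of level, and stood above the TIMP sum at 231 and 192. ADAM12 alone gave 306 of the control mean of that ADAM sum. On that scale membrane-type MMPs summed to 186 and 183, other MMPs to 57.4 and 65.6 and ADAMTSs to 104 and 108.

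**Figure D3:**
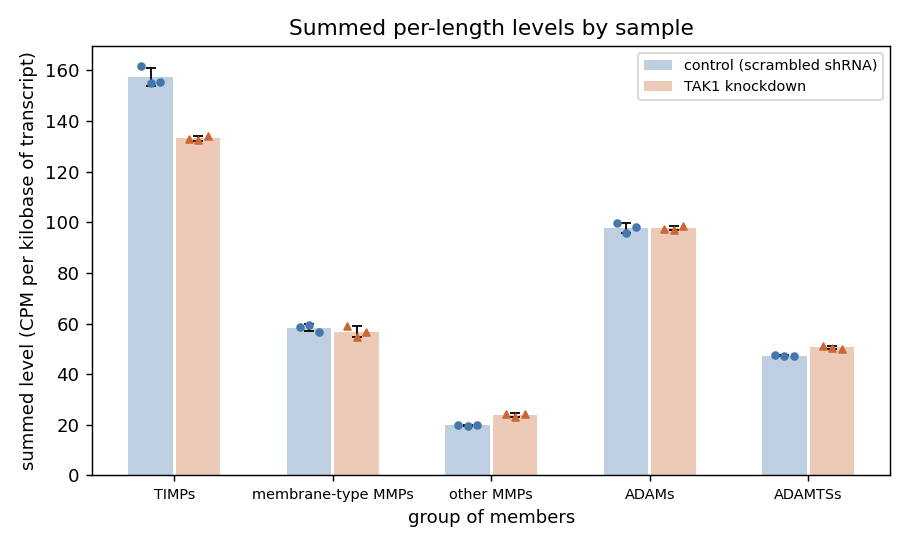
Summed level of each group of members in CPM per kilobase of longest transcript; bars are means, black lines the SD and points the 3 samples of each group. The TIMP points of the knockdown samples lie between 132 and 134, below the control points at 155 to 162.

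Genes that activate, carry or inhibit these enzymes, or that they cut, were read from lists of partner genes. These lists were chosen with earlier results of these data known, so the shares below describe them and do not test an enrichment. Of the 87 partner genes 63 were tested, of which 22 fell and 8 rose, or 47.6%, against 11.3%, 11.8% and 23.1% of all tested genes. Their median log2 fold change was -0.06. The plasminogen system held the largest share of changes, with 7 of 9 tested genes lower, 0 higher and a median of -0.58. PLAU, the urokinase that generates plasmin at the cell surface, had 315, 333 and 330 CPM in the controls and 127, 135 and 125 CPM after knockdown. Its groups were far apart, with a log2 fold change of -1.34 ± 0.047 (SE, adjusted p = 3.61e-16). The urokinase receptor PLAUR fell from 37.4, 38.1 and 37.7 CPM to 20.6, 21.8 and 20.4 CPM (log2 fold change -0.85). The activator PLAT, the plasminogen-binding proteins ANXA2 and S100A10 and the inhibitor SERPINE2 had log2 fold changes of -0.58, -0.65, -0.42 and -0.30. Activators, the receptor and an inhibitor were thus among the genes that fell. F12 and PLGRKT did not pass (0.28 and -0.04).

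RECK, A2M and TFPI2, inhibitors outside the TIMP family, also fell. RECK, a membrane-anchored inhibitor of MMP2, MMP9 and MMP14, had 64.4, 68.5 and 66.5 CPM in the controls and 40.1, 39.8 and 42.0 CPM after knockdown. The gap between groups was wide, with a log2 fold change of -0.71 ± 0.059 (SE, adjusted p = 8.27e-10). A2M, a protease trap, and TFPI2, a Kunitz-type inhibitor, fell by 0.50 and 0.73 on the log2 scale from control means of 12.2 and 2.75 CPM. TFPI2 lost its call without replicate 3 of the controls (-0.59). LRP1, the endocytic receptor that clears protease and inhibitor complexes, rose from 223, 205 and 197 CPM to 280, 248 and 295 CPM (log2 fold change 0.40 ± 0.057, adjusted p = 4.57e-06). In this list 3 of 8 tested genes fell and 1 rose, and SPOCK2, with a control mean of 160 CPM, did not pass (-0.12).

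FURIN, the convertase that removes the propeptides of membrane-type MMPs, ADAMs and ADAMTSs, had 92.5, 87.2 and 88.3 CPM in the controls and 135, 116 and 124 CPM after knockdown. Every knockdown value was higher, with a log2 fold change of 0.48 ± 0.056 (SE, adjusted p = 2.04e-07). PCSK4 rose from 1.23, 1.40 and 0.649 CPM to 2.94, 3.57 and 2.54 CPM (log2 fold change 1.47), and 3 other convertases did not pass. Of 9 proteins that escort ADAM10 or ADAM17, 3 fell and 0 rose. RHBDF1, which encodes the ADAM17 escort iRhom1, fell from 31.1 ± 1.42 to 22.5 ± 1.12 CPM (SD, n = 3) with a log2 fold change of -0.47. The ADAM10-binding tetraspanins TSPAN14 and TSPAN33 had log2 fold changes of -0.41 and -0.26, and TSPAN33 lost its call under 4 of 14 alternatives, control replicate 1 (-0.22) or knockdown replicate 2 (-0.23) left out among them. The other 6, RHBDF2, FRMD8, TSPAN5, TSPAN10, TSPAN15 and TSPAN17, had log2 fold changes from 0.01 to 0.14 and did not pass.

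**Figure D4:**
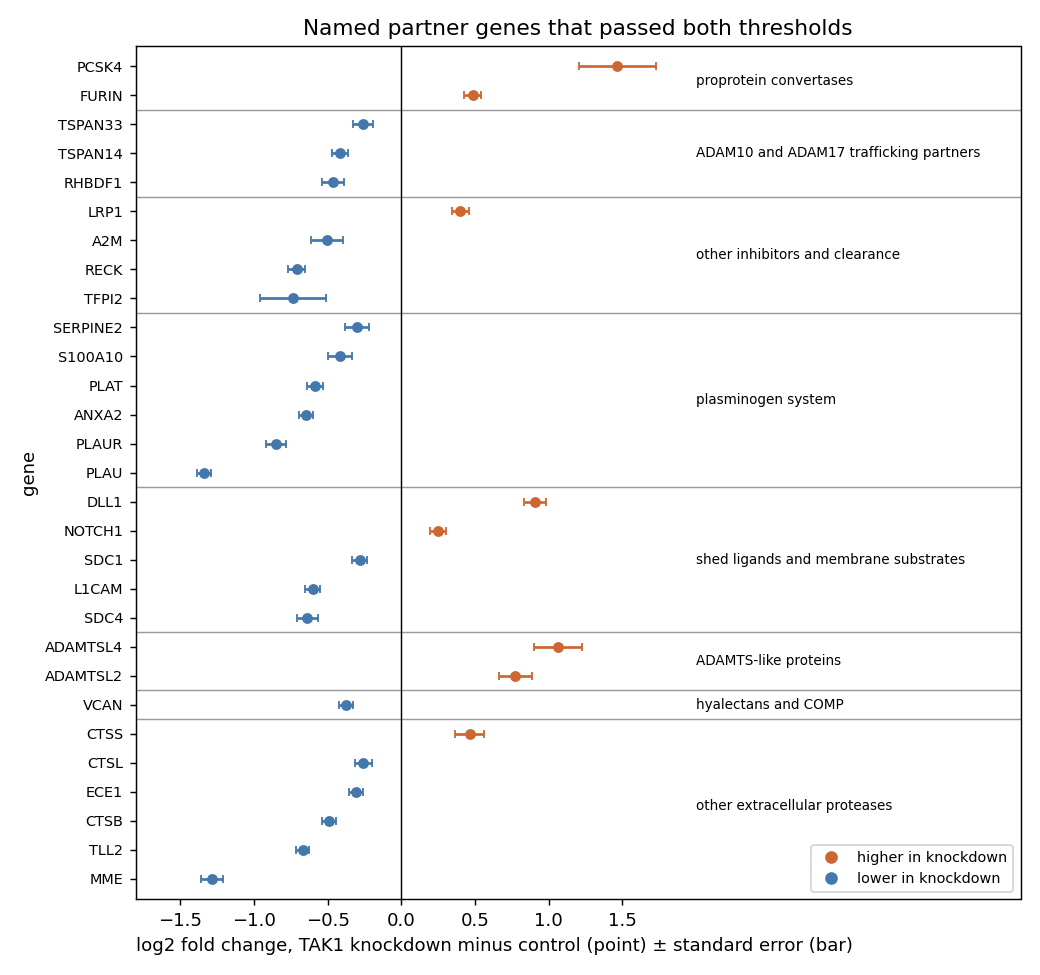
Log2 fold change, knockdown minus control, of named partner genes that passed both thresholds, grouped by list, with standard errors as bars. The genes shown from the plasminogen system all lie to the left of 0, and FURIN and PCSK4 lie to the right.

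Among 13 tested shed ligands and membrane substrates 2 rose and 3 fell. The Notch ligand DLL1, which ADAM proteases cut, rose from 23.1, 25.3 and 25.9 CPM to 51.8, 44.1 and 43.9 CPM (log2 fold change 0.91 ± 0.076, adjusted p = 8.39e-10). NOTCH1 had a log2 fold change of 0.25, at the threshold, and lost its call under 7 of 14 alternatives, with values down to 0.20 when single samples other than control replicate 1 and knockdown replicate 2 were left out. The heparan sulfate proteoglycans SDC1 and SDC4 and the adhesion molecule L1CAM fell by 0.28, 0.64 and 0.60 on the log2 scale, SDC1 not past the fold threshold without knockdown replicate 2 (-0.23). CDH2 and NOTCH2, both at -0.20, passed on the adjusted p and not on the fold. NOTCH2 passed both without knockdown replicate 3 (-0.26). APP, CD44, NRG1, SDC2, JAG1 and HBEGF did not pass on the adjusted p, except HBEGF without knockdown replicate 2 (-0.50). VCAN, the versican gene and a substrate of ADAMTS1, ADAMTS5, ADAMTS9 and ADAMTS15, fell from 314, 300 and 310 CPM to 232, 228 and 254 CPM (log2 fold change -0.37 ± 0.048, adjusted p = 1.04e-06).

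ADAMTS-like proteins share the matrix-binding repeats of the ADAMTS family without the protease domain. ADAMTSL4 rose from 3.69, 3.46 and 2.66 CPM to 7.66, 7.36 and 5.51 CPM (log2 fold change 1.07) and ADAMTSL2 from 8.41, 6.38 and 8.27 CPM to 12.8, 13.7 and 12.8 CPM (log2 fold change 0.77), while the other 3 tested did not pass. Of 12 further extracellular or lysosomal proteases tested, 5 fell and 1 rose. TLL2, a tolloid-type metalloprotease of the astacin family, fell from 462, 471 and 462 CPM to 287, 293 and 297 CPM (log2 fold change -0.67 ± 0.042, adjusted p = 6e-12). The cell-surface metalloprotease MME, or neprilysin, fell from 35.9 ± 1.48 to 14.7 ± 0.293 CPM (SD, n = 3; log2 fold change -1.28). ECE1 and the cathepsins CTSB and CTSL had log2 fold changes of -0.31, -0.49 and -0.26, and cathepsin S (CTSS) rose by 0.46. CTSL lost its call under 5 of 14 alternatives, control replicate 2 (-0.22), control replicate 3 (-0.25) or knockdown replicate 1 (-0.24) left out among them. PRSS23, under the fold threshold with all samples, fell past it without knockdown replicate 3 (-0.27). Exons of PLAU, LRP1, DLL1, VCAN, MME, ECE1, L1CAM, A2M, TFPI2, TSPAN14 and ADAMTSL4 overlap an annotated gene on the opposite strand. Strand use in counting was not stated. L1CAM also shares exon sequence with an unnamed gene annotated on the same strand.

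Of the 16 members past both thresholds, 11 kept their calls under all 14 alternatives that left the thresholds as they were, namely ADAM28, ADAM23, MMP15, ADAMTS5, ADAMTS13, MMP23B, TIMP3, ADAMTS2, TIMP1, ADAM9 and MMP17. Of the others, MMP2, ADAM11 and ADAM17 came under the fold threshold in at least 1 alternative, and ADAMTS9 and ADAMTS15 missed the adjusted p. ADAM28 ranged from 1.05 to 1.39, ADAM23 from 0.71 to 0.93 and ADAMTS5 from 0.59 to 0.69 on the log2 scale. TIMP1 ranged from -0.44 to -0.37 and TIMP3 from -0.38 to -0.31.

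**Figure D5:**
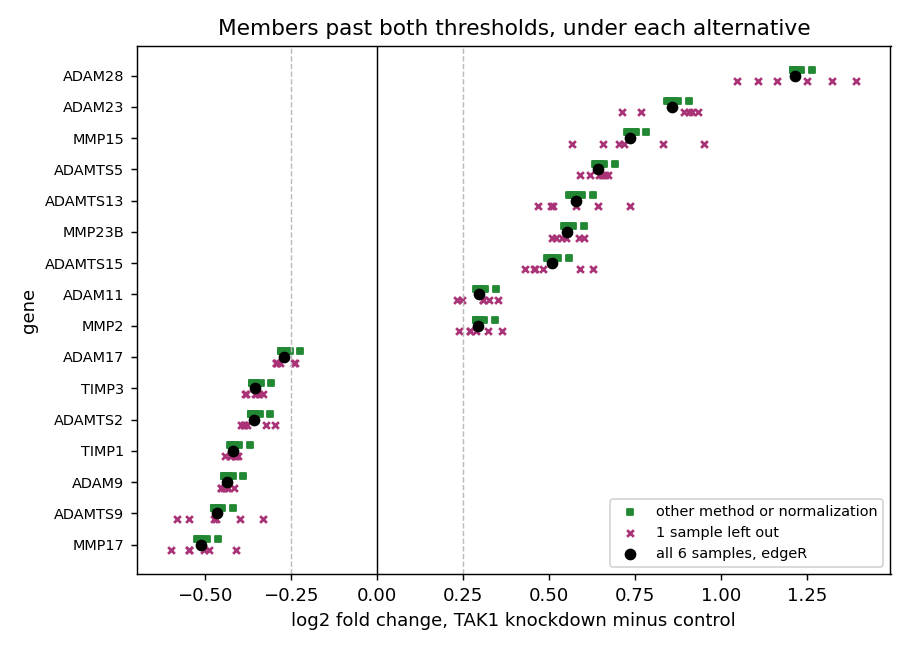
Log2 fold change, knockdown minus control, of the 16 members past both thresholds with all 6 samples (black), with 1 sample left out (crosses) and with another test, filter or normalization (squares); dashed lines mark 0.25 in either direction. The squares lie close to the black points. Crosses of MMP2, ADAM11 and ADAM17 cross the dashed lines, as does the ADAM17 square for library size alone (-0.22).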

How the data were processed

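Poly(A)-enriched RNA of 6 samples of RD cells was sequenced, 3 per group, with groups taken from the labels. The authors called bases with CASAVA, discarded low-quality and adaptor-bearing reads, aligned to GRCh38 with STAR and deposited raw counts per gene. The counter, annotation and strand use were not given in the sources used here.

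From these counts, genes were filtered with edgeR's default filter, scaled by TMM and tested with edgeR 4.0.16 (R 4.3.3), adjusting over all tested genes. The SE is the log2 fold change over the square root of F. Nothing in the labels says that samples came from separate cultures, so p-values measure the spread between these samples. Alternatives were DESeq2 1.42.0, voom (limma 3.58.1), other scalings, filters and fold thresholds, a replicate block, and each sample left out. The test was checked on counts simulated with a common dispersion for all genes. It recovered 189 of 200 changed genes, with 11 false calls. That recovery was not split by size of change, so it cannot be taken to hold for changes near the fold threshold of 0.25. Knockdown replicates differed more among themselves than controls did, which that simulation left out.

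Positions, lengths and overlaps came from GENCODE 44 (all 66 genes matched), promoters from RefSeq. Protein motifs were not analysed here. Named by rule were members past the thresholds, TIMPs, members of known roles, the 5 highest per length, undetected members and partner genes past the thresholds, and other tested genes were named after their values were seen. Members and lists were chosen with earlier results of these data known. A partner gene and a marker gene that the counts and sums include are not reported here by name.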

Additional observations from a re-analysis of the deposited data

How the results depend on the processing

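At a fold threshold of 0.5, 735 genes rose and 680 fell in all. That threshold left 1 member that fell, MMP17, along with 2 ADAM, 3 ADAMTS and 0 TIMP genes past the thresholds, and 4 partner genes that rose and 12 that fell. With no fold threshold 2734 of all tested genes fell, and the members past the test were 12 higher and 7 lower. Leaving out 1 sample at a time gave 3 to 6 ADAMTS genes past the thresholds, the lowest without control replicate 2, 7 to 9 members that rose and 6 to 9 that fell. Without TMM, using library sizes only, 62.9% of the genes past the thresholds were higher, compared to 51.0% with it, and 10 members rose and 6 fell. DESeq2 and voom each gave 9 members that rose and 7 that fell.

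Among 529 comparisons of a member with an alternative, 497 kept direction and side of the threshold, 11 lost the call, 7 gained it and 14 changed sign. All 14 were in genes that had not passed. Without TMM, TIMP2, MMP14 and ADAM15 turned to 0.029, 0.022 and 0.0088. With 1 sample left out, TIMP2 ran from -0.054 to 0.012, ADAMTS6 from -0.051 to 0.22, ADAMTS20 from -0.27 to 0.32, MMP25 from -0.26 to 0.38, MMP24 from -0.18 to 0.62, ADAMTS17 from -0.035 to 0.18, ADAM10 from -0.0100 to 0.090 and ADAMTS14 from -0.17 to 0.024. The causes of these changes were not tested. With the median transcript length, control levels of TIMP1, TIMP2, MMP14 and ADAM12 were 133, 78.2, 173 and 306 CPM per kilobase.

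Same-numbered replicates deviated together only weakly (r = 0.037, 0.036 and 0.017), so the numbers were not taken as pairs. With a replicate block 9 members rose and 7 fell, the same genes as without it, and 1942 and 1848 of all tested genes. Each control sample correlated best with the knockdown sample of its own number except replicate 3 (0.019 with replicate 2). Depth limits the members under 2 CPM, whose standard errors reached 0.60 on the log2 scale.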

Other observations

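Rows of these families that the symbol rule leaves out, chosen after their counts were seen, included transcripts next to members. MMP24OS, which overlaps MMP24, had 415, 381 and 375 counts in the controls and 497, 418 and 514 after knockdown, while MMP24 itself had at most 13. MMP25-AS1 had 106, 129 and 125 counts in the controls and 132, 174 and 159 after knockdown, while MMP25 had at most 15. The pseudogene ADAMTS7P4 had 77 to 109 counts in the controls and 95 to 113 after knockdown, and MMP23A, the copy of MMP23B, had at most 9.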
